A study of Mus musculus with 4 samples.

Results

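The genes described here encode the proteins of the cytosolic ribosome. They were taken by name: rows of the deposited table called Rpl or Rps with a number, Rplp0, Rplp1, Rplp2 and Rpsa, without pseudogenes named -ps and without S6 kinases. The rule found 89 of the 54348 rows, 53 named for the large and 36 for the small subunit. The measurements were RNA-seq of cells sorted for the red reporter tdTomato from the forebrains of mouse pups at postnatal day 4, after tamoxifen on postnatal days 0 and 1. All mice carried PdgfraCreER, a recombinase that tamoxifen activates in cells expressing Pdgfra, and AI14, which makes tdTomato after recombination. The 2 control libraries were PdgfraCreER;AI14, and the 2 fusion libraries PdgfraCreER;MN1:BEND2;AI14, carrying the fusion gene of the brain tumour astroblastoma. The comparison asks what cells of the Pdgfra lineage express with the fusion and without it.

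A ribosome joins a large subunit, which forms the peptide bonds, to a small subunit, which reads the messenger. Each subunit holds ribosomal RNA and 1 copy of nearly every ribosomal protein, and the stalk of the large subunit, built from Rplp0 with Rplp1 and Rplp2, recruits the translation factors. Messengers of ribosomal proteins begin with a stretch of C and T bases, the 5′ terminal oligopyrimidine or TOP tract, through which mTORC1 signalling and the protein Larp1 control their translation and stability as a group. Oligodendrocyte precursors, the main Pdgfra-expressing cells of the young forebrain, divide and grow at this age and hold many ribosomes.

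The region of the transcription start is shown for 4 members with large rises and then 4 with large falls, to show the sequence around the start beside the changes given below. Each line has 40 bases before the RefSeq start and 20 from it on (GRCm38.p6, strand of the gene), with the longest run of C and T in capitals.
Rps27: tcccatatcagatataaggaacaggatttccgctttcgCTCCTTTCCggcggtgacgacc
Rps27l: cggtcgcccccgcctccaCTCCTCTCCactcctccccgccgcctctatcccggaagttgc
Rpl22l1: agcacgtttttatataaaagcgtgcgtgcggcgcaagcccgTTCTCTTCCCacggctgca
Rpl39: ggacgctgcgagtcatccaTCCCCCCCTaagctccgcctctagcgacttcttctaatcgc
Rpl4: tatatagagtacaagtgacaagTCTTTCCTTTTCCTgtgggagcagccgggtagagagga
Rps3: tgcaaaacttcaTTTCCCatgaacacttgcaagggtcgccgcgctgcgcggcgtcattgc
Rpsa: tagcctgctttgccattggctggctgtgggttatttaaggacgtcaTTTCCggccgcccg
Rplp0: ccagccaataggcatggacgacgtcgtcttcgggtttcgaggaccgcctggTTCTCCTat
The marked run was 9, 9, 10 and 9 bases long in the 4 that rose and 14, 6, 5 and 7 in the 4 that fell. In Rps27l, Rpl39, Rpl4 and Rps3 it lay wholly before the RefSeq start, so there it is not a tract at the end of the messenger as annotated. In Rpl22l1, Rpsa and Rplp0 it began at base 2, 7 and 12 of the annotated messenger, so it is not at the very end there either. In Rps27 it began at position -2 and ran across the start. The windows lie at chr3:90213629-90213688 on the minus strand (Rps27), chr9:66946046-66946105 (Rps27l, the first of 2 listed starts), chr3:28805468-28805527 (Rpl22l1), chrX:37085203-37085262 on the minus strand (Rpl39), chr9:64173347-64173406 (Rpl4), chr7:99483690-99483749 on the minus strand (Rps3), chr9:120127726-120127785 (Rpsa) and chr5:115559427-115559486 (Rplp0). RefSeq promoters were found for 64 of the 89 genes, with 76 listed starts. A run of at least 8 bases that were each C or T stood in this window on the strand of the gene at 52.6% of these starts and at 24.2% of all 32851 RefSeq starts. On the other strand, where it reads as A or G, the shares were 14.5% and 25.5%. Among members that rose, 7 of 11 starts held the run, and among those that fell 8 of 14. Starts with the run were thus found on both sides. A run of letters in this window is a description only.

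The groups stood apart beyond these genes. Mitochondrially encoded genes took 7.30% to 10.1% of TPM (transcripts per 1000000, with 1 fixed total a library) in the control and 26.2% to 48.7% with the fusion. Across 12871 tested genes, 637 rose and 6606 fell, with a median log2 change of -1.41, so changes given with an SE are also given relative to that median. Bend2, part of the fusion, had 3.82 and 8.72 TPM with the fusion and 0 in each control library. The Y-linked gene Eif2s3y had 121 and 122 TPM in control libraries against 0 in each fusion library, so sex and genotype cannot be told apart. Of 10 markers of oligodendrocyte precursors all were lower in both fusion libraries, and 7 fell, against 71.1% and 51.3% of all tested genes. With median ratio scaling 1 fell and 1 rose, against 18.6% and 14.3% of genes. On that scale 4 lay above and 5 below both control libraries, against 4024 and 4991 of 12871 genes. With the GC and length correction 2 fell and none rose, against 15.7% and 13.1% of genes. There 4 lay above and 4 below, against 4057 and 4813 of 12862 genes. The summed level of the 10 markers was 1298 and 1675 TPM in control against 463 and 589 TPM in fusion libraries. Of 7 tested fibroblast markers 3 rose and none fell, and of 10 tested microglia and macrophage markers 3 rose and 2 fell. Of all tested genes 4.95% rose and 51.3% fell. With median ratio scaling 6 fibroblast and 4 microglia and macrophage markers rose and none fell, against 14.3% and 18.6% of genes. With the GC and length correction 5 and 6 rose and none fell, against 13.1% and 15.7%. Summed over 8 fibroblast markers the level was 47.9 and 126 TPM against 485 and 966 TPM, and over 12 microglia and macrophage markers 113 and 60.3 TPM against 167 and 245 TPM. Pdgfrb and Cx3cr1 stayed under 1 TPM in every library, and P2ry12 was at 0 in both fusion libraries. Astrocyte markers summed to 220 to 272 TPM and 30.8 to 63.1 TPM, neuron markers to 186 to 197 TPM and 23.7 to 41.1 TPM, and endothelial and red blood cell markers to at most 13.7 TPM. The part of these cells in the results below was not tested, and in sorted bulk RNA fewer cells of a type and less RNA per cell cannot be told apart.

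Ribosomal protein genes as a group took a similar share of TPM in both groups, and a larger share once mitochondrial transcripts were set aside. They made up 5.60% and 5.76% of TPM in the control and 5.28% and 7.41% in the fusion libraries. The fusion libraries lay on both sides of the control libraries (exact permutation test, 2-sided, p = 1). Of the TPM outside mitochondrially encoded genes, they made up 6.23% and 6.21% in the control and 10.3% and 10.0% in the fusion libraries, a ratio of the means of 1.63. On this scale the means were 6.22% ± 0.0131 and 10.2% ± 0.175 (SD, n = 2 each), a difference of 3.95 percentage points that is larger than the spread within either group. The exact permutation p was 0.333, the smallest that 2 against 2 libraries can give.

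**Figure D1:**
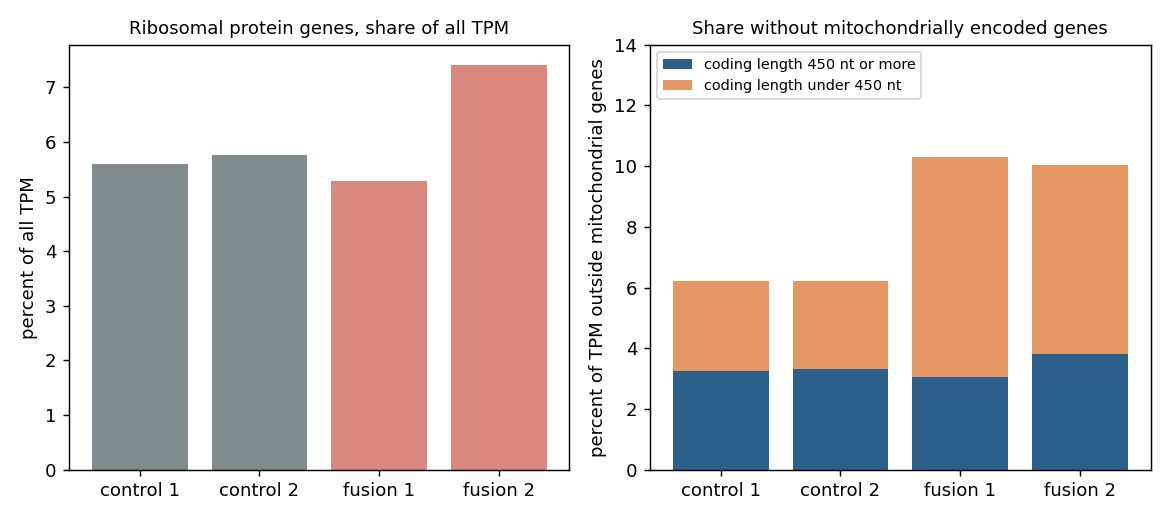
Share of ribosomal protein genes in each of the 4 libraries, as percent of all TPM (left) and as percent of TPM outside mitochondrially encoded genes (right, protein-coding members stacked by coding length). Each bar is 1 library with no error bar; on the right the fusion bars reach 10.3% and 10.0% against 6.23% and 6.21%, and the lower segment, coding length of 450 nt or more, stays between 3.04% and 3.80%.

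The larger share came with the members of short coding sequence. Protein-coding members with under 450 nt of coding sequence took 2.99% and 2.88% of the TPM outside mitochondrially encoded genes in the control and 7.25% and 6.25% in the fusion libraries. Longer members took 3.24% and 3.32% in the control and 3.04% and 3.80% in the fusion libraries, with the groups overlapping. The small subunit took 2.70% and 2.65% against 5.87% and 4.97%, and the large subunit 3.53% and 3.56% against 4.42% and 5.07%. The ratio of small to large subunit TPM was 0.765 and 0.745 in the control and 1.33 and 0.980 in the fusion libraries. For the short members and for both subunits the groups did not overlap (exact permutation p = 0.333 each, the smallest possible).

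Of the 89 genes, 81 passed the filter of at least 1 TPM in at least 2 libraries and were tested. Among these, 10 rose and 16 fell, and 55 did not pass (limma, Benjamini-Hochberg adjusted p under 0.05). Over all tested genes 4.95% were called higher and 51.3% lower, so a lower call was less common among the 81 than in that background and a higher call more common; no test of that difference was made. Members had a median log2 change of -0.24, which is 1.17 relative to the median of all genes. For 27 of the 81 each fusion library exceeded each control library, and for 35 each was below, against 10.2% and 71.1% of all tested genes. The groups overlapped for the other 19, and 81.3% of all tested genes had groups that did not. The large subunit had 3 members that rose and 11 that fell of 48 tested, with a median of -0.44, and the small subunit had 7 and 5 of 33, with a median of 0.04. The direction of the group depended on the scaling. The median turned to 0.33 without mitochondrially encoded genes (31 higher and 15 lower, against 7.78% and 38.3% of genes) and to 1.53 after median ratio scaling of the libraries (53 higher and 5 lower, against 14.3% and 18.6%), where the median of all genes was -1.06 and -0.15. The 10 that rose were called higher under each of the 5 rescalings tried. Without control replicate 1 or without control replicate 2 no member passed in either direction (limma), with 9 and 7 members lower and none higher at an unadjusted p under 0.05; of all genes 0.117% and 0.109% passed as higher and 8.59% and 7.96% as lower. Without fusion replicate 1, 36 members rose and 22 fell, against 8.42% and 51.9% of all genes, and without fusion replicate 2, 14 rose and 44 fell, against 6.26% and 62.1%. With the GC and length correction given below, 30 rose and 6 fell, against 13.1% and 15.7%; quantile normalization gave 27 higher and 15 lower members, against 15.1% and 15.2% of genes.

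**Figure D2:**
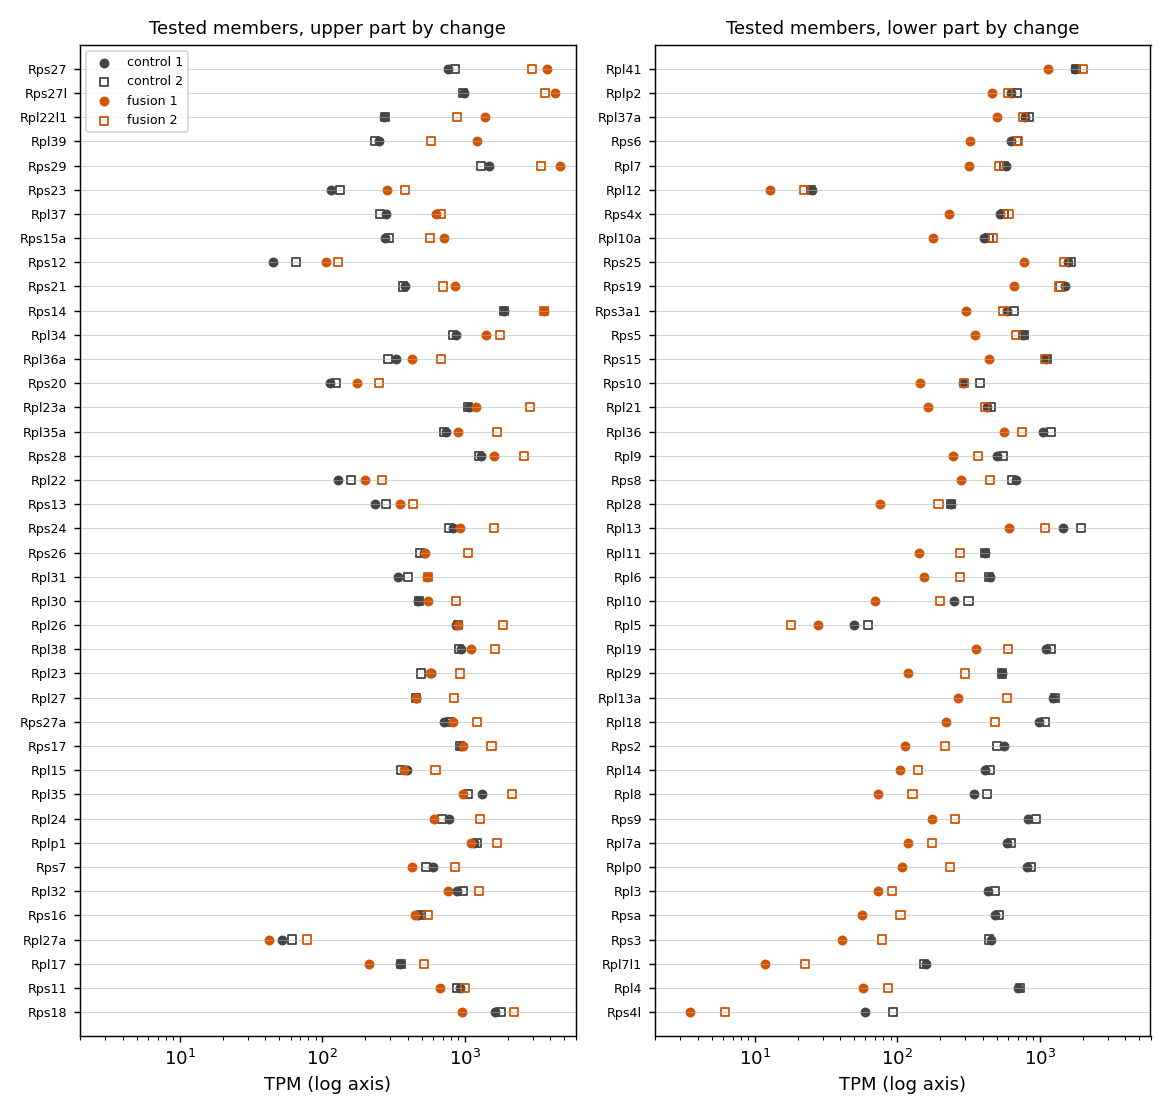
TPM of 80 of the 81 tested members in each library (log axis), ordered by log2 change from the largest rise at upper left to the largest fall at lower right. Filled circles are replicate 1 and open squares replicate 2, dark for control and orange for fusion; the control points lie close together, and the fusion points move from the right of them (Rps27) to the left (Rps4l).

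The largest rises were of Rps27, Rps27l and Rpl22l1. Rps27, a zinc-finger protein of the small subunit (chr3:90212522-90213651, GRCm38), had 764 and 853 TPM in control against 3787 and 2971 TPM in fusion libraries. That is 4.18-fold more, a log2 change of 2.05 ± 0.37 (SE; limma adjusted p = 0.00841; 3.46 relative to all genes). Its paralog Rps27l (chr9:66946086-66949516), a target of p53 in other settings, had 986 and 973 TPM in control against 4301 and 3662 TPM in fusion libraries. The change of Rps27l was 2.02 ± 0.36 (limma adjusted p = 0.00839; 3.42 relative to all genes). Both genes were high in both fusion libraries and the groups were far apart, while the ratio of Rps27l to Rps27 was 1.29 and 1.14 in the control and 1.14 and 1.23 in the fusion libraries. The messenger of Rps27 shares 98.7% of its 31-base words with other annotated genes, so its level is uncertain. One of its near copies, the protein-coding Rps27rt, had 630 and 595 TPM in control against 2209 and 1238 TPM in fusion libraries. Rps27l shares 29.6%.

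Rpl22l1 (chr3:28805436-28807424), a paralog that can take the place of Rpl22 in the large subunit, had 272 and 277 TPM in control against 1389 and 881 TPM in fusion libraries (log2 change 2.01 ± 0.38, SE; limma adjusted p = 0.00988; 3.41 relative to all genes). Rpl22 itself had 129 and 159 TPM in control against 200 and 262 TPM in fusion libraries, a change of 0.67 that did not pass (limma adjusted p = 0.151). On other scales Rpl22 was called higher, at 2.43 with median ratio scaling and 1.24 without mitochondrially encoded genes (limma adjusted p = 0.0108 and 0.0138). With the GC and length correction Rpl22 changed by 2.62 and Rpl22l1 by 1.42 (limma adjusted p = 0.00423 and 0.0285). Which of them rose more thus depended on that correction. The ratio of Rpl22l1 to Rpl22 was 2.10 and 1.75 in the control and 6.94 and 3.36 in the fusion libraries. The groups did not overlap in this ratio, though the fusion libraries differed from each other by more than the control libraries did (exact permutation p = 0.333, the smallest possible).

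Other small proteins of both subunits rose too. Rpl39, a short protein that lines the exit tunnel of the large subunit, had 250 and 235 TPM in control against 1216 and 583 TPM in fusion libraries (log2 change 1.79 ± 0.46; limma adjusted p = 0.0230; 3.20 relative to all genes). Its ratio of fusion replicate 2 to replicate 1, 0.479, was the lowest of all tested members. Rps29, a zinc-binding protein of the small subunit, had 1491 and 1304 TPM in control against 4659 and 3427 TPM in fusion libraries, where it was the highest member in replicate 1. Rps23, which reaches the decoding centre, had 116 and 134 TPM in control against 287 and 383 TPM in fusion libraries. Rpl37, a zinc-binding protein of the large subunit, had 280 and 256 TPM against 626 and 681 TPM, and Rps15a 277 and 295 TPM against 714 and 575 TPM. Rps12 and Rps21 also rose, and the changes of all 10 ran from 1.05 to 2.05 on the log2 scale, or 2.08-fold to 4.18-fold. In each of the 10 both fusion libraries lay above both control libraries.

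Among protein-coding members the largest falls were of those with longer coding sequence. Rpl4 (chr9:64173375-64178666), a core protein of the large subunit with a loop in the exit tunnel, had 701 and 728 TPM in control against 57.4 and 86.0 TPM in fusion libraries. That is 9.96-fold less, a log2 change of -3.33 ± 0.36 (SE; limma adjusted p = 0.00384; -1.92 relative to all genes). Rps3 (chr7:99477896-99483738), which sits where the messenger enters the small subunit, had 453 and 442 TPM in control against 41.0 and 78.9 TPM in fusion libraries (log2 change -2.95 ± 0.42; limma adjusted p = 0.00525; -1.55 relative to all genes). Rpsa, also known as the laminin receptor, had 487 and 521 TPM against 56.5 and 106 TPM. Rpl3, close to the peptidyl transferase centre, had 431 and 485 TPM against 72.9 and 92.6 TPM, and Rpl7a 594 and 626 TPM against 120 and 175 TPM. Rpl3 did not pass with median ratio scaling (limma adjusted p = 0.0855) or with the GC and length correction (0.158), Rpl7a not with the former (0.372) and Rpsa not with the latter (0.369). In all 5 the fusion libraries lay several-fold below the control libraries in TPM, replicate 1 below replicate 2. Without mitochondrially encoded genes in the total, Rpl3 had 142 in fusion replicate 1 and 126 in fusion replicate 2.

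The 3 stalk proteins differed in their values. Rplp0, often used as a reference gene in PCR assays, had 821 and 871 TPM in control against 108 and 235 TPM in fusion libraries (log2 change -2.40 ± 0.47, SE; limma adjusted p = 0.0108; -0.996 relative to all genes). Rplp0 did not pass with median ratio scaling (-0.64; limma adjusted p = 0.156) or with the GC and length correction (-0.35; 0.371). Rplp1 had 1158 and 1213 TPM in control against 1104 and 1690 TPM in fusion libraries, with the groups overlapping (log2 change 0.20; limma adjusted p = 0.676). Rplp2 had 630 and 697 TPM against 463 and 604 TPM (log2 change -0.32; limma adjusted p = 0.456). With median ratio scaling both were called higher, at 1.97 and 1.44 (limma adjusted p = 0.0113 and 0.0164). Rplp1 and Rplp2 form dimers bound to Rplp0 in the ribosome, and their coding lengths are 342 and 345 nt against 951 nt.

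Paralog forms named with a final l or l1 were of several kinds. Rpl7l1, a relative of Rpl7 found in precursors of the large subunit, had 161 and 155 TPM in control against 11.9 and 22.6 TPM in fusion libraries (log2 change -3.18 ± 0.42, SE; limma adjusted p = 0.00451; -1.78 relative to all genes). Rpl7 had 581 and 560 TPM against 318 and 523 TPM and did not pass (limma adjusted p = 0.329). Rps4l, a retrocopy of Rps4x that the annotation calls a transcribed pseudogene, had 59.8 and 93.9 TPM in control against 3.54 and 6.20 TPM in fusion libraries. Its change of -3.73 ± 0.45 was the largest fall of all tested members (limma adjusted p = 0.00400; -2.33 relative to all genes), while Rps4x had 525 and 564 TPM against 230 and 605 TPM and did not pass (limma adjusted p = 0.420). Rpl10l, Rpl3l and Rpl39l, forms known from testis or muscle, were listed at 0 in all 4 libraries. The other 5 genes not tested were annotated as pseudogenes and stayed at or under 0.344 TPM in each library.

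The change followed coding length. Over the 80 tested protein-coding members, the log2 change and the coding length had a Spearman rho of -0.77 and a Pearson r of -0.77; members share libraries and are not independent, so no p is given. In the fit on TPM, the 10 that rose had 153 to 429 nt of coding sequence and the 15 protein-coding members that fell had 564 to 1257 nt, with no overlap. That separation did not hold on every scale. Without mitochondrially encoded genes Rpl15 (612 nt) was called higher and Rps9 (582 nt) lower, at 0.94 and -1.49 (limma adjusted p = 0.0244 and 0.00744). With the GC and length correction Rpl15 and Rps9 were so called too, at 1.48 and -1.05 (limma adjusted p = 0.00896 and 0.0219). The rho was -0.77 over 48 members of the large subunit and -0.78 over 32 of the small one, and -0.78 and -0.75 for fusion replicates 1 and 2 taken singly against the control mean. It was -0.83 over the 28 members that share under 50% of their 31-base words with other genes. For the difference between the control libraries the rho was -0.24, and between the fusion libraries -0.38. With whole transcript length it was -0.50 and with GC content -0.37. After a correction for GC content and transcript length over all tested genes it was -0.61.

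**Figure D3:**
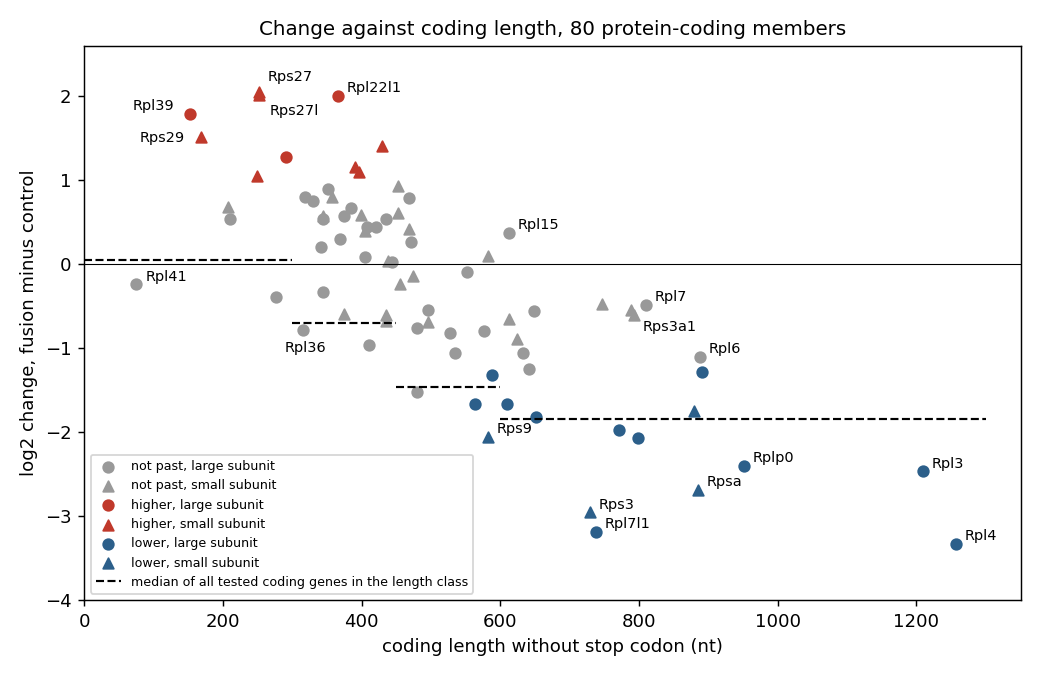
Log2 change, fusion minus control, against coding length for the 80 tested protein-coding members, coloured by call and shaped by subunit; dashed lines give the median of all tested protein-coding genes in each length class. Red points (higher) lie between 153 and 429 nt and blue points (lower) between 564 and 1257 nt.

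Some members departed from that order. Rpl41, whose 75 nt code for the shortest ribosomal protein, had 1776 and 1796 TPM in control against 1140 and 2012 TPM in fusion libraries, with the groups overlapping (log2 change -0.24; limma adjusted p = 0.658). Rpl36, with 315 nt, had 1058 and 1205 TPM against 566 and 757 TPM (log2 change -0.78; limma adjusted p = 0.115). Among long members, Rpl7 with 810 nt changed by -0.48 and Rps3a1 with 792 nt by -0.61, neither past the threshold, and Rpl15 with 612 nt had a positive change of 0.37 (limma adjusted p = 0.448).

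The same classes were counted over all protein-coding genes. Among all tested coding genes with under 300 nt, 21.7% rose and 22.4% fell, and the median change was 0.05; with 600 to 1500 nt, 3.34% rose and 61.2% fell, and the median was -1.84. Members had medians of 1.17 (10 genes), 0.49 (28 genes), -0.54 (19 genes) and -1.29 (23 genes) in the classes under 300, 300 to 450, 450 to 600 and 600 to 1500 nt (each class without its upper bound). All tested coding genes had 0.05, -0.69, -1.46 and -1.84 in these classes. Over all 11301 tested coding genes, which reach far greater lengths, the rho with coding length was 0.03. The part of length in the result was not tested, and the deposited values do not hold fragment lengths.

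**Figure D4:**
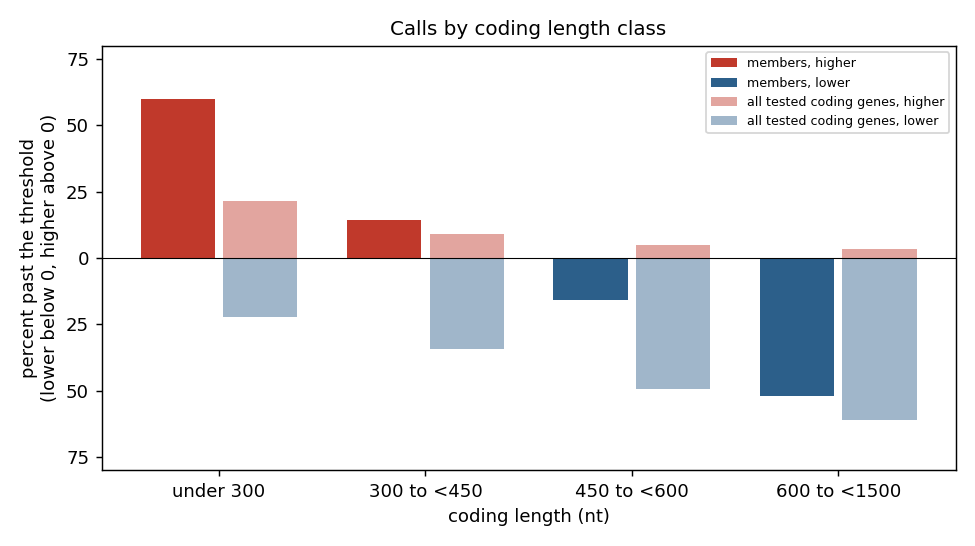
Percent of genes called higher (above 0) and lower (below 0) in 4 classes of coding length, for protein-coding members (dark bars, 10, 28, 19 and 23 genes) and for all tested protein-coding genes (pale bars). Of the members under 300 nt 60% rose and none fell, and of those with 600 nt or more 52.2% fell and none rose.

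The spread among members widened with it. In the control libraries the levels of the 80 tested protein-coding members, lowest for Rpl12 at 25.4 and 24.7 TPM, had an SD of log2(TPM + 1) of 1.25 and 1.21. In the fusion libraries they ran from 11.9 TPM (Rpl7l1) to 4659 TPM (Rps29), with an SD of 1.75 and 1.67. The control libraries agreed closely, with a replicate 2 to replicate 1 ratio of 0.803 to 1.57. The fusion libraries had a median ratio of 1.69, with the lowest, 0.479, for Rpl39, and replicate 1 was the lower one for 73 of the 81. Without mitochondrially encoded genes in the total their median ratio was 1.17, and replicate 1 was the lower one for 59 of the 81. Of the 8 members with replicate 1 the higher in TPM of all genes, 7 were among the 10 that rose, and the other was Rpl5.

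Other members with high levels did not pass in the fit on TPM. Rps14, of the small subunit and the highest by mean, had 1883 and 1885 TPM in control against 3597 and 3617 TPM in fusion libraries. Its groups were far apart and its replicates close, yet its change of 0.94 ± 0.36 (SE) did not pass (limma adjusted p = 0.0747, 2.34 relative to all genes). Rps14 was called higher with median ratio scaling (2.71), without mitochondrially encoded genes (1.51) and with the GC and length correction (1.62). The limma adjusted p there was 0.0112, 0.0109 and 0.00960, and with quantile normalization Rps14 did not pass (0.0599). Rps28 had 1303 and 1252 TPM against 1612 and 2594 TPM, and Rps18 1634 and 1783 TPM against 955 and 2211 TPM, and neither passed on that scale. With median ratio scaling both were called higher (limma adjusted p = 0.0108 and 0.0256). With the GC and length correction Rps28 passed as higher and Rps18 did not pass (limma adjusted p = 0.0239 and 0.384).

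Members with roles outside the ribosome were looked at next. Rpl5 and Rpl11, which with the 5S RNA bind Mdm2 and so stabilise p53 when assembly fails, had 50.2 and 62.7 TPM against 27.8 and 18.0 TPM, and 415 and 416 TPM against 143 and 277 TPM. Rpl5 fell (log2 change -1.29; limma adjusted p = 0.0394) and Rpl11 did not pass (log2 change -1.06; limma adjusted p = 0.0857). The call for Rpl5 ended and its direction turned with median ratio scaling (0.44; limma adjusted p = 0.524) and quantile normalization (0.52; 0.417), and it did not pass without mitochondrially encoded genes (-0.74; 0.239) or with the GC and length correction (-0.06; 0.926). Rps6, the substrate of the S6 kinases, had 635 and 695 TPM against 325 and 709 TPM and did not pass. Of the 4 members on the X chromosome, Rpl39 rose as given above. Rpl36a (328 and 290 TPM against 426 and 683 TPM), Rps4x and Rpl10 (252 and 317 TPM against 70.4 and 199 TPM) did not pass, so X-linked members had changes of both signs.

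Some ribosomal genes fall outside the name rule. Rack1, a scaffold on the head of the small subunit, had 362 and 388 TPM in control against 181 and 284 TPM in fusion libraries. Fau, which encodes a ubiquitin-like protein joined to Rps30, had 749 and 736 TPM against 305 and 664 TPM. Rpl36al, a near copy of Rpl36a, had 475 and 493 TPM against 482 and 924 TPM. None of these passed (limma), and their log2 changes ran from -0.72 to 0.46. Of the 4 such genes tested, 3 were called higher with median ratio scaling, against 14.3% of all genes. With the GC and length correction 1 was, against 13.1%. All 4 had positive changes on both scales. The 307 rows named as ribosomal protein pseudogenes summed to 0.492% and 0.531% of TPM in the control and 0.283% and 0.494% in the fusion libraries, and reads common to them and to the members may have been divided in either way.

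Genes that build ribosomes were mostly called lower on the TPM scale. Of 45 ribosome biogenesis genes, all tested, 38 fell, 1 rose and 6 did not pass, with a median log2 change of -2.38, or -0.97 relative to all genes, where 51.3% of all tested genes were called lower. With median ratio scaling 11 fell and 2 rose (median -0.81, against 18.6% of genes lower), and with the GC and length correction 12 fell and 1 rose (median -0.79, against 15.7%). Nop56, a core protein of the box C/D particles that guide methylation of ribosomal RNA, had 207 and 223 TPM in control against 3.21 and 8.29 TPM in fusion libraries (log2 change -5.11 ± 0.49, SE; limma adjusted p = 0.00371; -3.70 relative to all genes). Ebna1bp2 and Wdr12, assembly factors of the large subunit, had 152 and 148 TPM against 3.18 and 12.8 TPM, and 79.0 and 78.2 TPM against 2.71 and 3.57 TPM. The riser was Nop10, a small protein of the H/ACA particles with 192 nt of coding sequence, the shortest of the list, at 213 and 216 TPM against 717 and 457 TPM. Members of the ribosome and factors that build it thus had medians of -0.24 and -2.38. This difference was not tested, and the 2 lists differ in coding length. Only 2 of the 45 biogenesis genes had under 450 nt, against 10 tested coding members under 300 nt and 28 of 300 to 450 nt. Members of 600 to 1500 nt had a median of -1.29, and all tested coding genes of that class -1.84.

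Other messengers with a TOP tract were called lower at a share near that of all genes. Of 16 tested, 10 fell, 1 rose and 5 did not pass, beside 51.3% lower among all tested genes, with a median of -1.40, which is 0.01 relative to all genes. With median ratio scaling 3 fell and 2 rose and the median turned to 0.31, beside 18.6% lower and 14.3% higher among all tested genes. With the GC and length correction 1 fell and 3 rose (median -0.15), beside 15.7% lower and 13.1% higher. The medians of all tested genes on these scales were -0.15 and -0.09. Eif3h, Eef1d and Eef2, for an initiation factor subunit, a nucleotide exchange factor and the translocation factor, had 183 and 200 TPM against 6.12 and 32.6 TPM, 215 and 285 TPM against 27.9 and 18.8 TPM, and 64.1 and 115 TPM against 5.58 and 11.3 TPM. Eif3h did not pass with median ratio scaling (limma adjusted p = 0.0724) or with the GC and length correction (0.0508). Eef1d did not pass with the latter (0.0511), and Eef2 passed with both. Tpt1, the translationally controlled tumour protein, rose from 433 and 388 TPM to 1073 and 1171 TPM (log2 change 1.45 ± 0.33, SE; limma adjusted p = 0.0167; 2.86 relative to all genes).

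Of 15 tested genes of mTORC1 signalling and of the control of TOP messengers, 9 fell, none rose and 6 did not pass, with a median of -1.89, or -0.49 relative to all genes. This share too is near the 51.3% of all tested genes. Both with median ratio scaling and with the GC and length correction 2 fell and 2 rose, with medians of -0.61 and -0.70. Of all tested genes 18.6% fell and 14.3% rose with the former, and 15.7% and 13.1% with the latter. Rps6kb2, an S6 kinase, had 18.4 and 21.2 TPM in control against 0.194 and 1.02 TPM in fusion libraries. Myc, which drives ribosome production, had 27.0 and 26.2 TPM against 3.07 and 2.37 TPM, and Mlst8, a subunit of the mTOR complexes, 5.11 and 9.99 TPM against 0.207 and 0.0217 TPM. Myc did not pass with median ratio scaling (limma adjusted p = 0.0820) or with the GC and length correction (0.261). Mlst8 did not pass with the latter (0.0715), and Rps6kb2 passed with both. Larp1, which binds the TOP tract, had 2.88 and 5.62 TPM against 0.611 and 1.59 TPM and did not pass (limma adjusted p = 0.0623). The repressor Eif4ebp1 had 17.2 and 12.6 TPM against 16.5 and 58.1 TPM, with the groups overlapping.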

How the data were processed

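Libraries were made from full-length cDNA amplified with a single-cell kit, without molecular identifiers, and sequenced on an MGISEQ-2000, per the labels' protocols. The authors deposited TPM per gene; Trimmomatic 0.39, Salmon 1.8.0 and 2 build names (GRCm38, mm10) come from the submitters' processing notes. Sources used here do not give the annotation or how transcripts were summed. These values are scaled by transcript length and library total. It keeps no depth, so depth is unknown, and Salmon's length term depends on fragment length, which bears most on short transcripts. Forebrains were dissociated mouse by mouse per the labels, but no label ties a library to a mouse; p-values then reflect only differences among these libraries, which may be technical.

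Values were log2(TPM + 1), which understates the change of low genes. Genes reaching 1 TPM in 2 or more libraries were tested with limma 3.58.1 in R 4.3.3 (eBayes with trend, 2-sided), with Benjamini-Hochberg adjustment over all 12871 tested genes and a threshold of 0.05. Besides 2 residual degrees of freedom, limma estimated 3.25 prior ones. The fit was tested on simulated data. Positions, coding lengths (without the stop codon), GC content and shared words of 31 bases came from GENCODE M21 (GRCm38) and were found for all 89 members; of transcripts tied on support, the one of median length was used.

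Named members were the 8 largest rises, the 8 largest falls, the 8 highest means, the stalk proteins, Rpsa and the paralog forms with their namesakes, and for other lists up to 3 called genes a direction. Some results the rule covers are not reported here. Further members were named after their values were seen, as were the length classes. Members and lists were chosen with earlier results of these data known. Alternatives covered pseudocount, filter, scaling, variance model, replicate block, each library left out, GC and length correction (loess, span 0.3) and, chosen after seeing the data, 2 subsets of members.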

Additional observations from a re-analysis of the deposited data

How the results depend on the processing

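Counts of ribosomal protein genes past the threshold were 10 higher and 16 lower in the fit as reported. Higher counts were 5 with no filter, 53 with median ratio scaling, 27 with quantile normalization, 31 without mitochondrially encoded genes, 32 when ribosomal protein genes were also left out of the total, 30 with the GC and length correction and 5 with the replicate block. Lower counts were 15 with quantile normalization, 5 with median ratio scaling and 6 with the GC and length correction, each of 81 tested members. Among the 29 tested members sharing under 50% of their words, 7 were higher and 7 lower in the fit as reported. Leaving out 1 library gave 0 to 36 higher and 0 to 44 lower; without fusion replicate 1 they were 36 and 22, and without fusion replicate 2 they were 14 and 44. The smallest adjusted p of a member was 0.0825 without control replicate 1 and 0.0983 without control replicate 2 (limma, the remaining control library is taken to vary as the fusion libraries do). The 10 higher calls were kept under each of the 5 scalings, counting the GC and length correction as one. Of the 16 lower calls, 15 were kept without mitochondrially encoded genes, 13 with quantile normalization, 6 with the GC and length correction and 5 with median ratio scaling, namely Rpl4, Rpl7l1, Rps3, Rps4l and Rpsa. Rpl13a, Rpl18, Rpl19, Rpl5 and Rps2 turned to positive values with median ratio scaling. The cause was not tested.

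The median change of members, -0.24, became 1.53 with median ratio scaling, 0.26 with quantile normalization, 0.33 without mitochondrially encoded genes, 0.39 with ribosomal protein genes left out too and 0.59 with the GC and length correction, and ran from -0.69 to 0.15 with 1 library left out. The difference in the share of TPM, 0.663 percentage points, became 3.95 without mitochondrially encoded genes and ran from -0.403 (without fusion replicate 2) to 1.73 (without fusion replicate 1) with 1 library left out. For all tested genes, 637 higher and 6606 lower became 353 higher with no filter, 405 higher with a mean of at least 5 TPM, 1846 and 2396 with median ratio scaling, 1948 and 1955 with quantile normalization, 1036 higher without mitochondrially encoded genes, 1073 higher with ribosomal protein genes left out too and 1690 and 2015 with the GC and length correction. With 1 library left out they ran from 14 to 1084 higher and 1025 to 7987 lower.

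With median ratio scaling, changes turned to 1.04 for Rack1, 1.53 for Rpl41, 1.29 for Rpl7, 1.44 for Rplp2, 1.54 for Rps18 and 0.46 for Pdgfra; with the GC and length correction they turned to 1.15 for Rack1 and 1.21 for Rplp2. Same-numbered libraries did not deviate together (correlation -0.04 over 12871 genes), so the numbers were not taken as pairs. The unknown depth and 2 libraries a group limit every value.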
